A study of Bos taurus with 3 samples.

Results

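The genes described here encode proteins of pre-mRNA splicing and related RNA-binding proteins and RNA helicases in the mammary gland of dairy cows around parturition. They were picked by gene symbol: every gene whose symbol begins with SNRP, SF3A, SF3B, SRSF, SFRS, HNRNP, HNRP, PRPF, U2AF, LSM, RBM, SRRM, DDX or DHX followed by the usual number or letter was taken, leaving out the viral RNA sensors DDX58 and DHX58. The rule found 105 of the 9154 genes with a tag in any library, and no SRRM gene was among them. They fall into 9 families: 7 snRNP proteins, 10 LSM proteins, 9 SF3 and U2AF proteins, 9 PRPF proteins, 12 SR proteins, 13 hnRNP proteins, 17 RBM proteins, 21 DDX helicases and 7 DHX helicases.

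Biopsies came from 18 Holstein cows, all in their second parity, with 6 cows at each of 3 time points: day 35 before parturition (−35 d, the dry period), day 7 before parturition (−7 d, stage I of lactogenesis) and day 3 after it (+3 d, stage II of lactogenesis). RNA was isolated from a pool of the 6 biopsies of each time point, which gave 1 library of digital gene expression (DGE) tags per time point, each tag being the 17 bases that follow a CATG site in a transcript. Levels are given in TPM, the tags of a gene counted per 1000000 clean tags. They are not scaled to transcript length, because a transcript is counted by the tags at its CATG sites and not along its whole length. A gene was called at an FDR of at most 0.001 and a ratio of at least 2-fold by the Audic-Claverie test, which asks whether the tags of 2 libraries differ by more than counting error. Since each time point is a single library, no replicate stands behind any difference, and a call is a statement on the libraries compared rather than on the conditions. The intervals given are 95% intervals and cover counting error only, without any spread between cows. They treat every tag as an independent molecule, which copies made by PCR are not.

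Introns are removed from pre-mRNA by the spliceosome, which is built on each intron from small nuclear ribonucleoprotein particles (snRNPs), each a small RNA in a ring of Sm or LSM proteins with particle-specific partners. SR proteins and hnRNPs bind the pre-mRNA and steer which splice sites are used, and helicases of the DDX and DHX families remodel RNA at every later step, from spliceosome turnover to ribosome assembly, export, translation and decay. These genes are active in practically every cell, so in a gland sampled as a whole their tags come from epithelium, stroma and immune cells together.

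The members were well covered and lay above the typical gene. The median member had 41.8 TPM at −35 d, 45.9 TPM at −7 d and 27.7 TPM at +3 d, against 13.9, 12.9 and 10.4 TPM for the median listed gene. Of the 105 members, 103 were listed in all 3 libraries, 103 averaged 1 TPM or more and 23 averaged 100 TPM or more. The exceptions were the helicase gene DDX54, with 6 tags, and RBM10, with 4 tags, both listed at −35 d and at 0 in the other libraries, which is close to the 3 tags that a count of 0 allows (0.507, 0.536 and 0.513 TPM). No fold is given for them, nor for SFRS15 against the −7 d library, where it had 3 tags. Tags that match several genes were left out by the authors, so members with close copies, such as HNRNPA1, DDX19A and DDX19B, RBM4 and RBM4B, or SNRPB and SNRPN, are counted on their unshared tags alone and their levels are uncertain.

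Together the members held 55285, 51228 and 31954 tags at −35 d, −7 d and +3 d. As a share of the clean tags this was 0.935% at −35 d (interval 0.927% to 0.943%), 0.916% at −7 d (0.908% to 0.924%) and 0.547% at +3 d (0.541% to 0.553%). The share at −7 d was therefore 0.980 times that at −35 d, and the share at +3 d was 0.597 times that at −7 d. In the same libraries the 5 genes that each held over 1% of the clean tags of a library, 4 caseins and beta-lactoglobulin, took 0.348%, 4.13% and 22.6% of the clean tags. Counted among the tags of listed genes without those 5, the members held 2.33%, 2.46% and 1.80%, which puts the share at +3 d at 0.732 times that at −7 d. The lower share at +3 d thus remained, at a smaller size, among the tags of listed genes without those 5 genes. Both the removal of those genes and the limit to listed genes enter this change in size. Of the luminal epithelial markers, 11 of 12 were found and none was at 0. Their 4 milk protein genes (CSN1S1, CSN2, CSN3 and LALBA) summed to 2709, 27403 and 163750 TPM in order of time, whereas the other 7, keratins and junction genes among them, summed to 1898, 1325 and 1184 TPM. In pooled tissue, fewer cells of a type and less RNA per cell cannot be told apart.

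Of the 9 families the hnRNP genes held the most tags, 44.0%, 39.8% and 36.8% of the member tags at −35 d, −7 d and +3 d. HNRNPA1 alone held 14.3%, 9.23% and 6.71% of the member tags and was the member with the most tags in each library. Without HNRNPA1 the members held 0.801%, 0.831% and 0.510% of the clean tags. HNRNPK, which binds C-rich RNA, and HNRPDL, a close relative of HNRNPD, were also among the 5 members with the most tags in each library. The rest of the first 5 were SRSF2 and HNRNPF at −35 d, SRSF2 and HNRNPD at −7 d, and DDX17 and SRSF6 at +3 d.

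**Figure D1:**
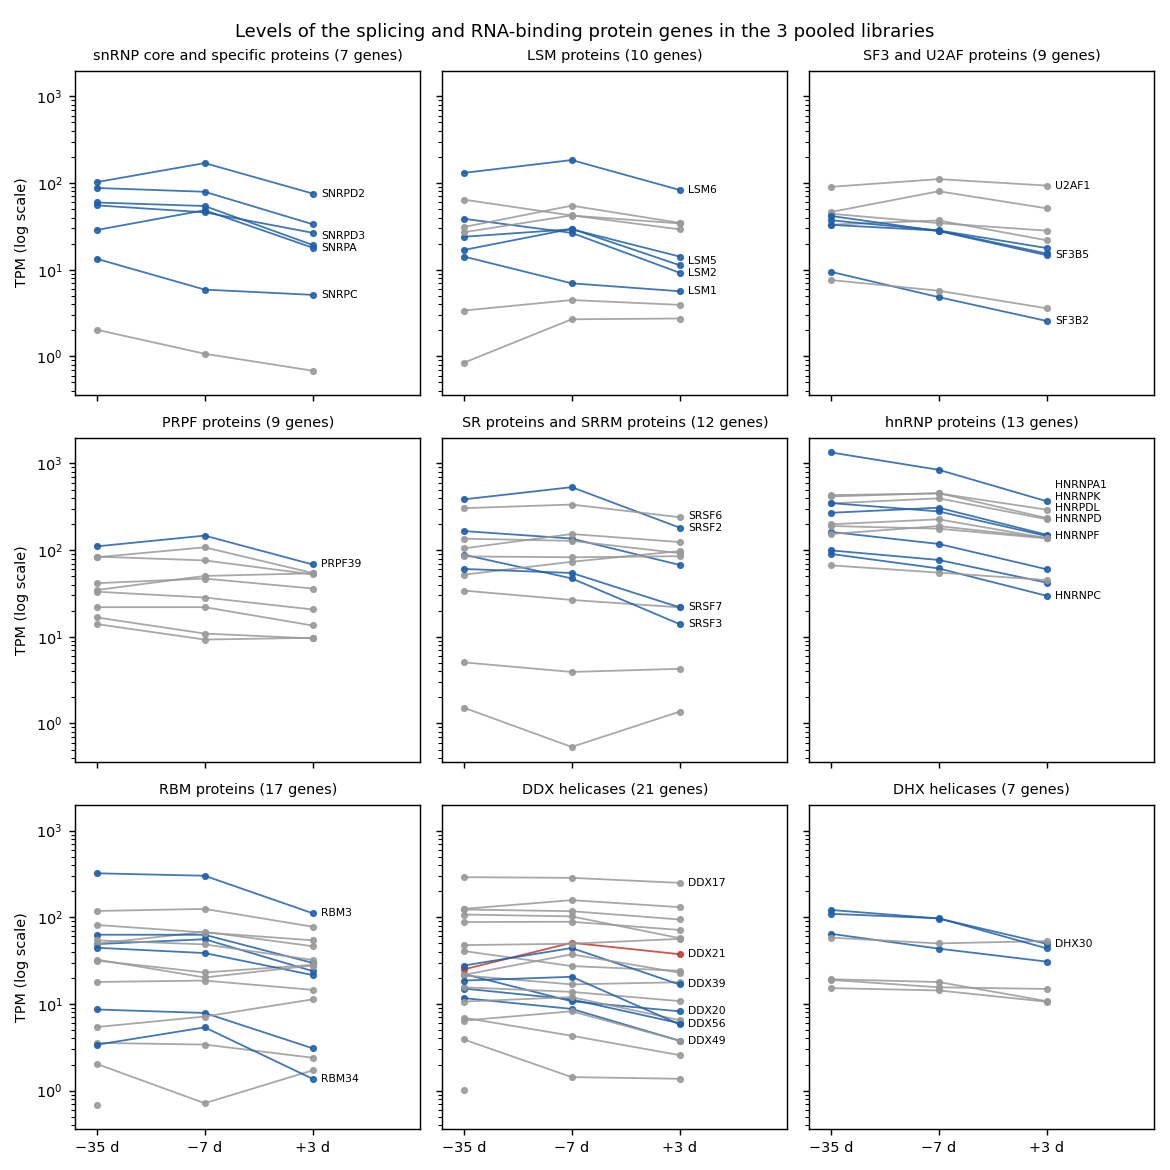
Level of every member in TPM (log scale) in the 3 pooled libraries, by family, 1 line per gene. Blue lines are members called lower in any comparison, the red line is DDX21, which was called higher, and grey lines are members not called. Names mark the members that the naming rule chose and are moved up where they would overlap. Values of 0 are not drawn. Most lines run lowest at +3 d, and the hnRNP genes lie highest.

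At −7 d compared with −35 d few members differed. Of 105 members, 4 were called, 1 higher and 3 lower, against 9.07% of all genes tested (2.62% higher and 6.45% lower). The members' share of 3.81% was thus below that of all genes. The upregulated member was DDX21, and the downregulated members were DDX20, LSM1 and SNRPC. The members averaging 1 TPM or more had a median log2 ratio of −0.10 (quartiles −0.38 and 0.24) beside −0.19 over all 7570 such genes (quartiles −0.63 and 0.22), with 0.5 tags added to each count. Scaling by edgeR's TMM method, which centres the bulk of genes, raises every log2 ratio of this comparison by 0.19, and with it 3 members were called higher and 0 lower, against 4.22% and 3.90% of all genes. Those 3 were DDX21, LSM3 and LSM5.

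At +3 d compared with −7 d, 23 of the 103 members tested were called lower (22.3%) and 0 higher, against 10.4% of all genes called lower and 3.12% higher. The median log2 ratio was −0.65 (quartiles −0.995 and −0.29) beside −0.31 over all genes. Of 103 members, 89 had a ratio below 0, as did 66.8% of all genes, and 73 a ratio below the median of all genes. TMM scaling raises the ratios of this comparison by 0.31, and with it 10 members were called lower and 0 higher, against 4.90% and 5.87% of all genes. The share of members called lower was above that of all genes tested under either scaling. Since the members lay above the typical gene in level, the calls were also counted among well-covered genes, with the clean tag totals. Of genes averaging 5 TPM or more, 22 of 93 members were called lower, against 14.4% of all such genes. No such count is given with TMM scaling, so the TMM share is set beside genes of all levels.

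At +3 d compared with −35 d, 31 of 105 members were called lower (29.5%) and 0 higher, against 16.3% lower and 2.33% higher over all genes. The median log2 ratio was −0.68 (quartiles −1.24 and −0.28) beside −0.53. TMM scaling raises these ratios by 0.50, and the calls then split into 8 lower and 4 higher, against 4.94% and 6.23% of all genes. The 4 called higher after TMM scaling were DDX21, PRPF3, RBM23 and SRSF5. Among genes averaging 5 TPM or more, 31 of 93 members were called lower with the clean tag totals, against 22.0%. In that setting 1 member was called higher. This comparison shares its libraries with both stages, so its calls are not separate evidence.

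**Figure D2:**
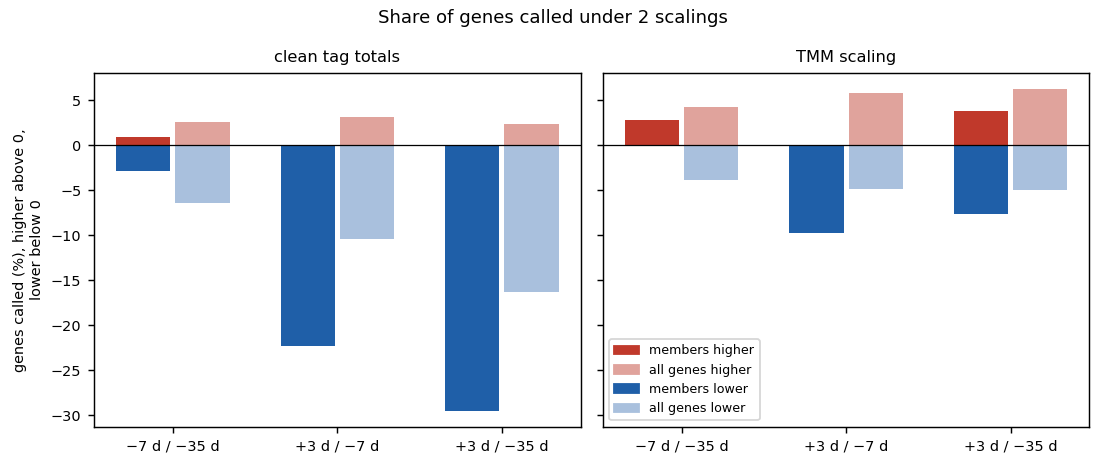
Percent of genes called higher (above 0) and lower (below 0) among the members (dark bars) and among all genes tested (light bars), for the 3 comparisons, with clean tag totals on the left and with TMM scaling on the right. The lower calls among members at +3 d, 22.3% against −7 d and 29.5% against −35 d, stand above the bars of all genes, and after TMM scaling they are fewer.

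Set by the library where each gene was highest, 60 of 103 members (58.3%) peaked at −35 d, 37 (35.9%) at −7 d and 6 (5.83%) at +3 d. Among all genes the shares were 53.7%, 30.3% and 16.0%. The +3 d library was the lowest for 80 members (77.7%), against 58.3% of all genes. In all, 41 members were called in at least 1 comparison and 64 in none. No member was called in both stages, and 14 of the 23 called in stage II were also called at +3 d compared with −35 d. No share over all genes is given beside these counts of calls, so they are not read as a trait of the members.

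**Figure D3:**
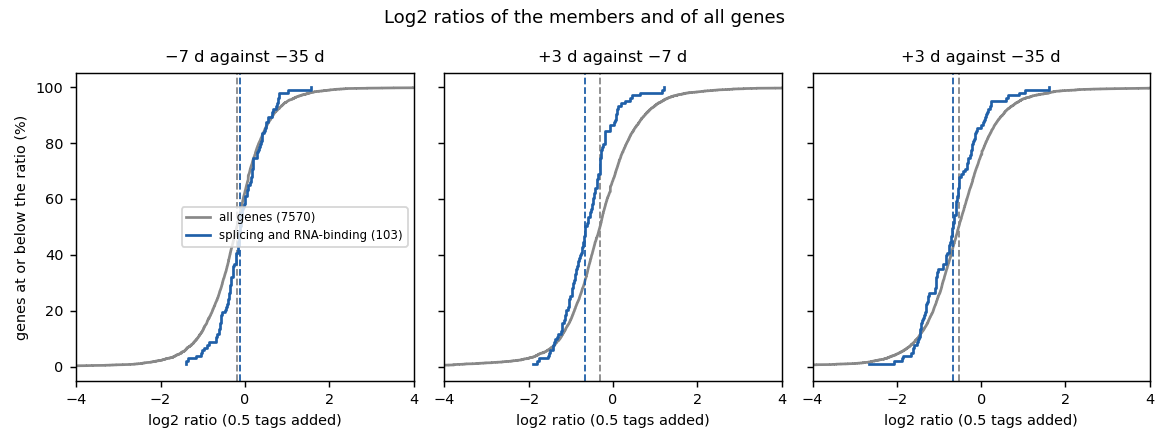
Cumulative share of genes by log2 ratio (0.5 tags added) for the 103 members (blue) and all 7570 genes (grey) averaging 1 TPM or more, in the 3 comparisons. Dashed lines are the medians. The curves cross in stage I, with medians of −0.10 and −0.19, and the members' curve lies to the left in stage II, with medians of −0.65 and −0.31.

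The snRNP proteins had the lowest family median at +3 d. Their median log2 ratio was −0.14 in stage I, −1.16 in stage II and −1.37 at +3 d compared with −35 d, and 1, 4 and 4 of the 7 genes were called lower. Over all genes tested 6.45%, 10.4% and 16.3% were called lower in these comparisons. These shares are the background for the counts of each family and list below, which are small. SNRPD3, one of the Sm proteins that form the ring around the small nuclear RNA, had 59.7 TPM at −35 d, 54.4 TPM at −7 d and 19.3 TPM at +3 d. Its levels before parturition were close together and the +3 d level was 2.81-fold below that at −7 d (log2 ratio −1.49, interval −1.82 to −1.18). SNRPG, another ring protein, had 87.8, 79.4 and 33.5 TPM. It was called lower at +3 d against both earlier libraries. SNRPD2, the most abundant gene of the family, took a different course, with 103 TPM at −35 d, 170 TPM at −7 d and 75.8 TPM at +3 d. It was highest at −7 d, and of the 3 comparisons only stage II was called (log2 ratio −1.17, interval −1.33 to −1.002). SNRPA, a protein of the snRNP that recognises the 5′ splice site, had the same shape, with 28.7, 48.6 and 18.0 TPM and a log2 ratio of −1.44 in stage II (interval −1.78 to −1.11). SNRPC, of the same particle, had 79, 33 and 30 tags at −35 d, −7 d and +3 d. Its lower level was already present at −7 d (log2 ratio −1.18, interval −1.81 to −0.58), and the +3 d library was close to the −7 d library. SNRPD3 and SNRPA were also called lower in stage II after TMM scaling, while SNRPG and SNRPD2 were not, and the calls of SNRPC were lost.

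The LSM proteins were the family furthest above all genes in stage I. Their median log2 ratio was 0.44 in stage I beside −0.19 over all genes, then −0.60 in stage II and −0.62 at +3 d compared with −35 d. LSM2 to LSM7 belong both to the nuclear ring that binds the U6 RNA of the spliceosome and to the cytoplasmic ring that takes part in mRNA decapping, whereas LSM1 belongs to the cytoplasmic ring alone. LSM6, the most abundant of them, had 131 TPM at −35 d, 184 TPM at −7 d and 83.3 TPM at +3 d. LSM5 had 16.9, 29.7 and 11.3 TPM, and LSM4 had 24.0, 29.3 and 14.2 TPM. These 3 genes were highest at −7 d and were called lower in stage II, by 2.21-fold for LSM6, 2.63-fold for LSM5 and 2.07-fold for LSM4. LSM3, with 31.1, 54.9 and 34.7 TPM, and LSM7, with 27.1, 42.4 and 29.3 TPM, were also highest at −7 d but were not called in stage II. LSM2 had no such peak: it had 229, 149 and 54 tags at −35 d, −7 d and +3 d, or 38.7, 26.6 and 9.24 TPM. Its level at +3 d was 4.19-fold below that at −35 d (log2 ratio −2.07, interval −2.52 to −1.63), which was the second lowest ratio of any member in that comparison. LSM1 had 84, 39 and 33 tags and was called lower at −7 d and at +3 d against −35 d. With TMM scaling LSM5 and LSM2 were still called lower in stage II and LSM2 over the whole interval, and the calls of LSM1, LSM4 and LSM6 were lost. Genes of the same ring thus differed in course, with LSM1 and LSM2 highest at −35 d and LSM3 to LSM7 highest at −7 d.

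The SF3 proteins sit in the snRNP that binds the branch point of the intron, and U2AF1 and U2AF2 form the dimer that recognises the 3′ splice site. Their median log2 ratios were −0.36, −0.67 and −1.06, and calls were limited to +3 d compared with −35 d, where 4 of the 9 genes were called lower. SF3B5 had 41.8 TPM at −35 d, 27.9 TPM at −7 d and 14.7 TPM at +3 d, a log2 ratio of −1.50 over the whole interval (−1.88 to −1.15), and this call was also made after TMM scaling. SF3B2 had 56, 27 and 15 tags, so its ratio of −1.88 carries a wide interval (−2.81 to −1.04), and it was not called with TMM scaling. Both genes were lower in each later library without a call in either single stage. U2AF1, the most abundant gene here, had 90.5, 111 and 93.6 TPM, and its +3 d and −35 d levels did not differ beyond counting error (log2 ratio 0.05, interval −0.13 to 0.22). U2AF1L4, a paralog of U2AF1, had 37.2, 28.4 and 17.8 TPM and was called lower over the whole interval, with the clean tag totals alone.

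The PRPF proteins had the fewest calls. PRPF39, which joins the particle at the 5′ splice site, had 111 TPM at −35 d, 147 TPM at −7 d and 68.4 TPM at +3 d, and it was the sole PRPF gene called, in stage II (log2 ratio −1.10, interval −1.28 to −0.93), a call not made with TMM scaling. PRPF8, the scaffold of the catalytic core, had 84.2, 76.2 and 52.5 TPM and was not called. PRPF19, a ubiquitin ligase of the spliceosome, had 41.6, 47.0 and 36.1 TPM and was not called either. PRPF3, a protein of the U4/U6 particle, ran the other way, with 34.7, 50.4 and 54.1 TPM, and was called higher at +3 d compared with −35 d after TMM scaling alone. The medians of the family were 0.00, −0.46 and −0.68.

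The SR proteins were the family with the widest spread of ratios between its quartiles in stage II, −1.08 to 0.06. SRSF3, the smallest SR protein, had 524, 264 and 82 tags at −35 d, −7 d and +3 d, or 88.6, 47.2 and 14.0 TPM. It was 3.37-fold lower in stage II (log2 ratio −1.75, interval −2.13 to −1.39) and 6.32-fold lower over the whole interval (log2 ratio −2.66, interval −3.01 to −2.32), the lowest ratio of any member in that comparison. SRSF7, which resembles SRSF3 and like it acts as an adaptor of mRNA export, had 60.7, 54.5 and 21.9 TPM and was called lower at +3 d against both earlier libraries. SRSF2, the most abundant SR gene, had 386 TPM at −35 d, 533 TPM at −7 d and 182 TPM at +3 d. It peaked at −7 d and was 2.93-fold lower in stage II (log2 ratio −1.55, interval −1.65 to −1.45). SRSF2, SRSF3 and SRSF7 were called lower in stage II with TMM scaling as well, and SRSF3 alone of them over the whole interval.

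SFRS13A (SRSF10) had 166, 136 and 67.6 TPM and was called lower at +3 d against both earlier libraries, with the clean tag totals alone. In all, 4 of the 12 SR genes were called lower in stage II and 4 at +3 d compared with −35 d. Over all genes 10.4% and 16.3% were called lower. Other SR genes, such as SRSF4, SRSF6 and SRSF5, did not share this course. SRSF4 had 84.7, 82.8 and 85.2 TPM, with a log2 ratio of 0.01 over the whole interval from −35 d (interval −0.17 to 0.19). SRSF6 had 305, 336 and 240 TPM and was not called. Of the 6 members that were highest at +3 d, SRSF5 had the most tags in that library, with 52.1, 73.5 and 97.5 TPM and a log2 ratio of 0.91 over the whole interval (0.70 to 1.11), short of the 2-fold threshold with the clean tag totals and above it with TMM scaling. Genes of 1 family thus ranged at +3 d compared with −35 d from 6.32-fold lower to 1.87-fold higher.

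The hnRNP genes all had ratios below 0 in stage II, 13 of 13, and again at +3 d compared with −35 d, where 66.8% and 75.7% of all genes did. With TMM scaling 12 and 11 of the 13 were below 0, against 50.1% and 51.9% of all genes. Their median log2 ratios were −0.10, −0.87 and −0.83, and 0, 3 and 5 of them were called lower. HNRNPA1, an abundant nuclear protein that binds exonic and intronic silencers, had 7930, 4729 and 2145 tags at −35 d, −7 d and +3 d, or 1341, 845 and 367 TPM. Its levels stepped down at each time point, with a log2 ratio of −0.67 in stage I, −1.20 in stage II and −1.87 over the whole interval (−1.94 to −1.80). HNRNPC, which binds tracts of uridines, ran in parallel at a lower level, with 90.5, 61.5 and 29.8 TPM. HNRNPAB, with 162, 118 and 60.2 TPM, and HNRNPF, with 349, 280 and 146 TPM, were called lower at +3 d compared with −35 d but in neither stage. HNRNPF binds runs of guanines, as does HNRNPH2, which had 99.4, 77.1 and 42.3 TPM and was likewise called over the whole interval only. HNRNPR had 270, 309 and 151 TPM and was called in stage II, at 2.05-fold lower. HNRNPA1 and HNRNPC were called lower over the whole interval with TMM scaling as well, the other hnRNP calls of that comparison were lost, and no hnRNP gene was called in stage II with it.

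The remaining hnRNP genes were not called in any comparison. HNRNPK had 431, 451 and 293 TPM, with a log2 ratio of −0.62 in stage II (interval −0.71 to −0.53). HNRNPD, which binds AU-rich elements, had 346, 396 and 228 TPM, and HNRPDL had 417, 455 and 235 TPM. The genes of this last pair lie next to each other in the RefSeq annotation of the assembly ARS-UCD2.0, and both were slightly higher at −7 d and below both earlier levels at +3 d without a call. HNRNPU, a nuclear scaffold protein, had 190, 177 and 137 TPM, and HNRNPUL1 had 154, 190 and 139 TPM.

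Among the RBM proteins, RBM3 was the most abundant and the clearest case. RBM3, known for its induction by cold, had 1901, 1685 and 651 tags at −35 d, −7 d and +3 d, or 321, 301 and 111 TPM. The 2 libraries before parturition were close together, and the +3 d library was 2.70-fold below the −7 d library (log2 ratio −1.44, interval −1.57 to −1.30). It was called in stage II and over the whole interval under both scalings. CIRBP, the other well-known cold-induced RNA-binding protein, is no member by name and had 116, 118 and 175 TPM. It was not called with the clean tag totals and was called higher at +3 d compared with −35 d with TMM scaling, whereas RBM3 was called lower.

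RBM4, a regulator of alternative splicing, had 62.9, 62.8 and 29.8 TPM, and RBM14, a protein of nuclear paraspeckles, had 49.0, 55.8 and 23.9 TPM. Both were called lower at +3 d against each earlier library with the clean tag totals, and neither with TMM scaling. RBM4B, a paralog of RBM4, had 17.9, 18.6 and 14.5 TPM and was not called. RBM14, RBM4 and RBM4B follow each other without a protein-coding gene between them in the RefSeq annotation, so neighbouring genes gave both outcomes. RBM34 had 20, 30 and 8 tags and the lowest ratio of any member in stage II, −1.97, with an interval from −3.31 to −0.81, and was not called with TMM scaling. RBM8A, a core protein of the exon junction complex, had 118, 125 and 77.8 TPM and was not called. RBM23 had 32, 40 and 66 tags at −35 d, −7 d and +3 d. Its ratio was above 2-fold at +3 d compared with −35 d (log2 ratio 1.06, interval 0.43 to 1.72), without an FDR of at most 0.001 over all genes with the clean tag totals. The family had median log2 ratios of −0.08, −0.57 and −0.59, and 0, 4 and 5 genes were called lower.

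The DDX helicases had median log2 ratios of −0.05, −0.41 and −0.71. DDX21, a nucleolar helicase of ribosomal RNA synthesis and processing, was the sole member called higher with the clean tag totals over all genes tested. It had 148, 284 and 219 tags at −35 d, −7 d and +3 d, or 25.02, 50.8 and 37.5 TPM. The −7 d level was 2.03-fold above that at −35 d (log2 ratio 1.02, interval 0.73 to 1.32), and the +3 d level lay between them. DDX56, another nucleolar helicase, had 110, 115 and 34 tags and was 3.54-fold lower in stage II (log2 ratio −1.82, interval −2.42 to −1.26). DDX39, which acts in mRNA export, had 27.7, 44.2 and 16.8 TPM and a log2 ratio of −1.40 in stage II (interval −1.75 to −1.05). DDX56 and DDX39 were called lower in stage II with TMM scaling too.

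DDX20, a subunit of the SMN complex that loads Sm proteins onto small nuclear RNA, had 131, 60 and 48 tags at −35 d, −7 d and +3 d. Its lower level was called in stage I (log2 ratio −1.05, interval −1.51 to −0.60) and over the whole interval, under the clean tag totals and not after TMM scaling. DDX49 had 69, 49 and 22 tags and was called lower at +3 d compared with −35 d, but not with TMM scaling. DDX17, the most abundant helicase and a partner of DDX5 in splicing and transcription, had 290, 285 and 249 TPM. Its log2 ratio was −0.22 over the whole interval from −35 d (interval −0.32 to −0.12), a smaller step than that of the median gene, and it turned to 0.28 with TMM scaling.

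Of the 7 DHX helicases, 0, 1 and 3 were called lower. DHX30, which takes part in the assembly of mitochondrial ribosomes, had 121, 96.7 and 49.4 TPM and a log2 ratio of −1.30 over the whole interval from −35 d (interval −1.50 to −1.10). DHX9, also named RNA helicase A, had 110, 97.3 and 43.8 TPM and was called at +3 d against both earlier libraries. DHX15, which dismantles used spliceosomes, had 64.4, 43.4 and 30.8 TPM and was called over the whole interval only. DHX40 had 58.2, 49.9 and 53.2 TPM and was not called. With TMM scaling no DHX gene was called in any of the 3 comparisons.

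**Figure D4:**
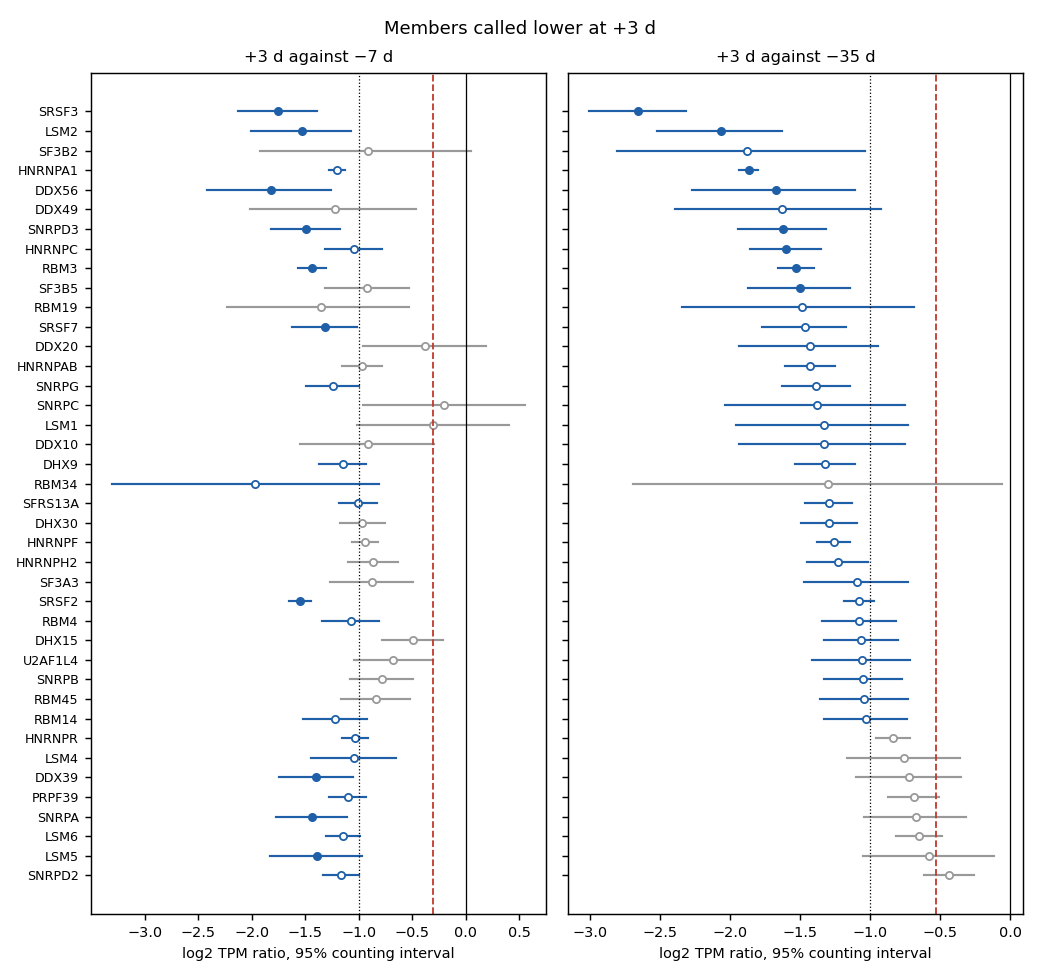
Log2 TPM ratios with 95% counting intervals of the members called lower at +3 d, against −7 d on the left and against −35 d on the right, in order of the ratio on the right. Blue marks a call in that comparison, filled points a call with TMM scaling too, and grey marks no call. The dashed red line is the median of all genes and the dotted line is 2-fold lower. SRSF3 and LSM2 head the order, at −2.66 and −2.07 against −35 d.

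The test used above knows counting error alone. If the pools are assumed to vary between samples with a coefficient of variation of 0.2, edgeR's exact test called 0 of 105 members in stage I, 0 of 103 in stage II and 3 of 105 at +3 d compared with −35 d, against 0.602%, 1.82% and 1.74% of all genes. The 3 members were SRSF3, LSM2 and HNRNPA1, all lower. With an assumed coefficient of variation of 0.4 no member was called, against 0.0335%, 0.0911% and 0.156% of all genes. The real spread among cows does not enter any of these values.

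Divided by role, the helicases of ribosome assembly (11 of 16 found, all of them members) had a median log2 ratio of 0.16 in stage I, and 10 of the 10 that averaged 1 TPM or more had a ratio below 0 in stage II, with a median of −0.79 beside −0.31 over all genes. DDX21 was called higher in stage I and DDX56 lower in stage II, and 3 genes (DDX10, DDX49 and DDX56) were called lower over the whole interval. The helicases of the spliceosome (8 of 14 found, 6 of them members) had medians of −0.15, −0.34 and −0.41, with 0, 1 and 2 called lower. The helicases of export, translation and decay (8 of 13 found, all members) had medians of −0.25, −0.73 and −1.10, with 1, 1 and 3 called lower. Their median over the whole interval was below that of all genes, −0.53, and DDX20, DHX9 and DHX30 were the genes called. The lists are broad. As given above, DDX20 acts in the SMN complex and DHX30 in mitochondrial ribosome assembly, and DDX39, counted with the spliceosome, acts in mRNA export. The calls are therefore not read as a trait of any of these roles.

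Genes of the same pathways that the naming rule leaves out were read from 10 lists, which hold 109 genes besides the members. Not every listed gene was found, and counts are over those found. They were 9 of 12 for Sm protein assembly, 19 of 20 for the exon junction complex and export and 14 of 18 around PRPF19. For SR protein kinases they were 5 of 9, for other regulators 33 of 46, for cleavage and polyadenylation 14 of 19 and for mRNA decay 20 of 36. Of the 109 genes, 1 was called higher and 3 lower (2.75%) in stage I, below the 6.45% of all genes called lower. In stage II 0 were called higher and 15 lower (13.8%), near the 10.4% of all genes, and at +3 d compared with −35 d 0 were called higher and 27 lower (24.8%), against 16.3%. After TMM scaling there were 4, 8 and 13 calls, of which 2, 7 and 11 were lower (1.83%, 6.42% and 10.1%), against 3.90%, 4.90% and 4.94% of all genes.

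Assembly of Sm proteins on small nuclear RNA had 4 of 9 genes called lower in stage II and 4 over the whole interval. PRMT5, the arginine methyltransferase that modifies Sm proteins, had 60.9 TPM at −35 d, 67.4 TPM at −7 d and 19.0 TPM at +3 d, a log2 ratio of −1.83 in stage II (interval −2.15 to −1.52). Its partners in the same complex were called as well, WDR77 with 25.9, 22.2 and 8.90 TPM and CLNS1A with 32.6, 31.8 and 13.9 TPM. SMN1 had 9.64, 16.98 and 7.70 TPM and was called lower in stage II. With TMM scaling the calls of PRMT5 and WDR77 were still made and those of CLNS1A and SMN1 were not. The 3 genes of the methylating complex thus had similar levels before parturition and lower ones after it, the shape given above for SNRPD3 and SNRPG. DDX20, a member in this list, was the sole gene of the list called lower in stage I.

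In the exon junction complex and mRNA export, 1, 3 and 4 of 19 genes were called lower. EIF4A3, the RNA-clamping helicase of the exon junction complex, had 140, 107 and 47.0 TPM. RNPS1, which joins it, had 216, 200 and 80.7 TPM, and MAGOHB, one of its core proteins, had 18.4, 15.0 and 5.65 TPM. These 3 were the stage II calls, by 2.27-fold for EIF4A3, 2.48-fold for RNPS1 and 2.66-fold for MAGOHB, which alone was called in that stage with TMM scaling. THOC3, of the export complex THO, had 50, 25 and 10 tags and was called lower over the whole interval (log2 ratio −2.30, interval −3.45 to −1.31). ACIN1, an RNA-binding partner of RNPS1, had 22.7, 9.65 and 12.3 TPM and was the gene called in stage I. The export receptor gene NXF1 had 16.1, 18.2 and 30.8 TPM and was called higher with TMM scaling alone, in stage II and over the whole interval. The most abundant gene of this list, BAT1 (DDX39B), had 197, 272 and 141 TPM and was not called.

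Of 33 other splicing regulators, 1 was called higher and 1 lower in stage I, 1 lower in stage II and 8 lower at +3 d compared with −35 d. KHDRBS3, a paralog of KHDRBS1, had 115, 510 and 101 tags at −35 d, −7 d and +3 d, or 19.4, 91.2 and 17.3 TPM. It was 4.69-fold higher in stage I (log2 ratio 2.23, interval 1.94 to 2.53) and 5.28-fold lower in stage II (log2 ratio −2.40, interval −2.72 to −2.09), under both scalings, and its levels at −35 d and +3 d did not differ beyond counting error (log2 ratio −0.17, interval −0.57 to 0.23). KHDRBS1 (SAM68) had 18.1, 12.0 and 7.70 TPM. PTBP1, which represses exons beside pyrimidine tracts, had 26.4, 14.8 and 8.38 TPM. Both were called lower over the whole interval, PTBP1 with TMM scaling too. PCBP1, which binds C-rich RNA, had 65 tags at −35 d and 13 and 14 tags in the later libraries, and was called lower in both comparisons with −35 d. YBX1, the most abundant gene of the list, had 913, 1216 and 741 TPM and was not called.

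No kinase of SR proteins was called among the 5 found, of which 4 averaged 1 TPM or more. SRPK3 had 2, 0 and 0 tags at −35 d, −7 d and +3 d, too few for a call. CLK1 had 131 TPM at −35 d, 66.2 TPM at −7 d and 90.1 TPM at +3 d, a log2 ratio of −0.98 in stage I (interval −1.17 to −0.80), which is just short of the 2-fold threshold. PRPF4B, a member that also belongs to this list, had 82.8, 108 and 54.6 TPM. The complex around PRPF19 and its partners, which enter the spliceosome at activation, had no call in either stage and 3 of 14 genes called lower over the whole interval. They were AQR with 13.9, 7.33 and 4.28 TPM, BUD31 with 53.1, 36.7 and 19.0 TPM and PLRG1 with 9.98, 6.44 and 4.11 TPM, of which AQR alone was called with TMM scaling. The most abundant gene of this list, CWC15, had 100 TPM at −35 d, 68.3 TPM at −7 d and 52.9 TPM at +3 d and was not called.

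In cleavage and polyadenylation, 0, 2 and 3 of 14 genes were called lower. CPSF6 had 34.2, 48.5 and 19.5 TPM and CSTF1 had 26.5, 22.0 and 10.8 TPM, and both were called in stage II, CPSF6 with TMM scaling too. PABPC1, the cytoplasmic poly(A)-binding protein, had 1283 TPM at −35 d, 1017 TPM at −7 d and 519 TPM at +3 d, a log2 ratio of −1.30 over the whole interval (−1.37 to −1.24), called with the clean tag totals alone. NUDT21, the partner of CPSF6, had 64, 39 and 14 tags and was also called over the whole interval. In mRNA decay, 2, 5 and 7 of 20 genes were called lower, LSM1 among them. With TMM scaling 0, 2 and 2 were called lower. CNOT7, a deadenylase, had 108, 82.6 and 39.7 TPM, and CNOT10, of the same complex, had 21.1, 14.7 and 5.30 TPM. Both were called in stage II and over the whole interval, CNOT10 under both scalings and CNOT7 with the clean tag totals alone. DCP1A, a decapping factor, had 91, 40 and 62 tags and was called with LSM1 in stage I, neither of them with TMM scaling. EDC3 had 13 and 15 tags before parturition and was at 0 at +3 d, which puts it at least 5.23-fold lower than at −7 d against the 3 tags that a count of 0 allows.

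**Figure D5:**
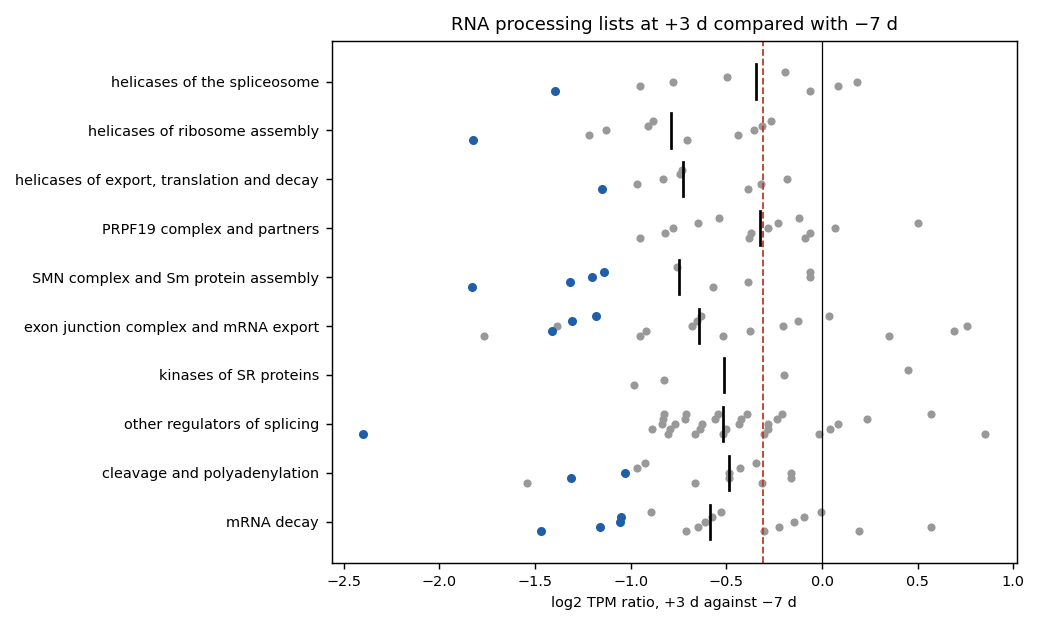
Log2 TPM ratios at +3 d compared with −7 d for the genes of the 10 RNA processing lists, 1 point per gene with more than 3 tags in both libraries. Blue points are calls and grey points are not, black bars are list medians over genes averaging 1 TPM or more, and the dashed red line is the median of all genes, −0.31. All 10 bars lie at or left of that line, between −0.32 for the complex around PRPF19 and −0.79 for the helicases of ribosome assembly, and the lowest point is KHDRBS3 at −2.40.

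Markers of dividing cells moved in the same comparisons. Of 18 such genes 14 were found, and they summed to 197 TPM at −35 d, 292 TPM at −7 d and 51.3 TPM at +3 d. In stage II 12 of the 14 were called lower, BUB1B and MCM5 were at 0 at +3 d, and the median log2 ratio was −3.00. In stage I 2 were called higher and the median was 0.64. Macrophage markers (8 of 12 found) summed to 382, 285 and 490 TPM, T cell markers (11 of 12) to 263, 166 and 153 TPM, and adipocyte markers (7 of 8, with PLIN4 at 0 in the last 2 libraries) to 280, 169 and 395 TPM. The part of dividing cells or of other cell types in the levels of the splicing and RNA-binding genes was not tested.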

How the data were processed

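Biopsies of 18 Holstein cows gave 3 pools of 6, each sequenced as 1 DGE library. The authors took out adaptor sequences, faulty tags and tags seen once, and compared the remaining clean tags with the CATG sites (and the 17 bases after them) of bovine UMD 3.1 transcripts, allowing 1 mismatch. Per gene, the deposited counts are sums of unambiguous clean tags, which the authors made without tags that match more than 1 gene. The authors' deposited TPM is such a count per 1000000 clean tags, and dividing counts by clean tags gave them to within 0.0050 TPM. Clean tags numbered 5914422, 5593237 and 5845821 at −35 d, −7 d and +3 d, with 40.5%, 41.4% and 53.0% on listed genes, and the median member had 247, 257 and 162 tags. The copies of each distinct tag served only to give the totals of clean tags.

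Gene tables were joined by accession, and a gene not listed was given 0 tags. Symbols came from the deposited descriptions. Of 105 members, 98 accessions matched ARS-UCD2.0, used for names and neighbours alone; there DDX39 is DDX39A, SFRS13A is SRSF10, SFRS16 is CLASRP, SFRS18 is PNISR, and HNRPDL and HNRPLL are HNRNPDL and HNRNPLL. The members and lists were chosen with earlier results of these data known.

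The smaller tail of the Audic-Claverie distribution was doubled to give p, and the Benjamini-Hochberg adjustment ran over all genes tagged in either library. A call needed an FDR of 0.001 or less and at least a 2-fold ratio in TPM, where 0 TPM was read as 0.01 TPM. Ratios of single genes have exact binomial intervals, and shares have Wilson intervals. No tags were added in the calls or in the ratios given for single genes, with TMM scaling or without it. In medians 0.5 tags were added. Scripts were tested on simulated data. Alternatives were TMM scaling, DESeq2's size factors, totals without genes over 1% of a library, Fisher's exact test, tails with the observed count, edgeR's exact test with assumed coefficients of variation of 0.2 and 0.4, a 3-fold threshold, a mean of at least 5 TPM and 0.5 tags added; the share without HNRNPA1 was added after seeing the data.

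Named members are the 10 highest and 10 lowest called of each comparison, the 5 with the most tags in each library, the most abundant of each family, and those called under both clean tag totals and TMM scaling. Named genes outside the members are, for each list, the 2 highest and 2 lowest called of each comparison and the most abundant gene, with KHDRBS1, PTBP1 and CLK1; ESRP1, ESRP2 and SRPK1 were not analysed here. All other members and genes described, among them SRSF4, SRSF5, PRPF3, RBM23, RBM4, SNRPG, LSM3, DHX9, CIRBP and NXF1, were named after their values were seen. Promoter and protein sequences were not analysed here. Software was edgeR 4.0.16 and DESeq2 1.42.0 in R 4.3.3, and Python 3.11.15 (pandas 2.3.3, numpy 2.4.6, scipy 1.17.1, matplotlib 3.10.9).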

Additional observations from a re-analysis of the deposited data

How the results depend on the processing

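Counts of members called (4, 23 and 31 in stage I, in stage II and at +3 d compared with −35 d) stayed within 1.5 times of these values with Fisher's exact test, tails that include the observed count, 0.5 tags added and a mean of at least 5 TPM. With TMM scaling they were 3, 10 and 12, with DESeq2's size factors 9 in stage II and 11 over the whole interval, and with totals without the genes over 1% of a library 2, 10 and 17. A 3-fold threshold left 0, 3 and 8. With an assumed coefficient of variation of 0.2 there were 0, 0 and 3 calls, and with 0.4 there were 0, 0 and 0. The members' median log2 ratio in stage I, −0.10, was reversed to 0.086 by TMM scaling and to 0.089 by DESeq2's size factors, with that of all genes at 0.00 under both. In stage II it moved from −0.65 to −0.34, −0.33 and −0.34 with TMM, DESeq2's size factors and totals without the genes over 1%, and over the whole interval from −0.68 to −0.18, −0.16 and −0.31. TMM scaling shifts every ratio of a comparison alike, so it cannot change the side of the all-gene median on which a family lies. With a mean of at least 5 TPM each of the 9 families kept its side in each comparison, except the SR proteins. They went from 0.08 above the all-gene median to −0.078 over the whole interval. Calls among the other RNA processing genes went from 15 in stage II and 27 over the whole interval to 8 and 13 with TMM scaling, and to 1, 1 and 0 in the 3 comparisons with a coefficient of variation of 0.2. The share of member tags was 2.33%, 2.46% and 1.80% of the listed tags without the genes over 1%, and 0.801%, 0.831% and 0.510% of clean tags without HNRNPA1.

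Over all members, TMM scaling changed the sign of 19, 15 and 18 ratios in the 3 comparisons, and 0 of these were called. Among the 31 members chosen by the naming rule they were those of DDX17 (0.16 in stage I, 0.12 in stage II and 0.28 over the whole interval), RBM3 (0.10), SRSF7 (0.035) and SNRPD3 (0.055) in stage I, LSM1 (0.0032), U2AF1 (0.061) and SNRPC (0.11) in stage II, and SRSF6 (0.15) and SNRPD2 (0.060) over the whole interval. Of the 93 ratios of those 31 members, 62 kept direction and call, 18 kept direction and lost the call, and 2 gained one. The cause was not tested. No paired analysis was possible because each time point is 1 pooled library. The planned promoter and protein features were not run. Depth limits members with few tags: 3 tags correspond to 0.507, 0.536 and 0.513 TPM.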
